A study of Sus scrofa with 20 samples.

Results

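The 105 transcripts described here were those whose level stood far below the control in every group of polycystin-silenced LLC-PK1 cells, out of 46295 transcripts measured by RNA-Seq. They were selected on these same data. A transcript was taken when its mean level over the 20 libraries was at least 1.3 CPM (counts scaled to a common library total of 1000000), when its group mean of log2(CPM + 0.5) was at least 1.5 below that of the control in each of the 4 silenced groups, and when every silenced library lay below every control library. The shallowest library, siPC1 replicate 1, was not held to the last condition. Of the 20292 transcripts at or above the CPM floor, 117 met the fold condition, and 12 of these overlapped the control libraries and were left out. The same rule with its signs turned found 416 raised transcripts, and with CPM scaled by the trimmed mean of M values (TMM) the numbers were 163 lowered and 330 raised. Every difference from the control given below therefore describes how the members were chosen, and none of these differences carries a test.

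LLC-PK1 is an epithelial line from the pig proximal tubule, the segment of the nephron that takes back most filtered sugar, amino acids and salt. Polycystin-1 (PC1) and polycystin-2 (PC2) are membrane proteins that can join in one complex, in the primary cilium among other places, and loss of either causes autosomal dominant polycystic kidney disease. Myocardin-related transcription factor A (MRTF-A) is held in the cytosol by monomeric actin. When actin polymerizes, it enters the nucleus and, with serum response factor, drives genes of the cytoskeleton and the matrix. A small interfering RNA (siRNA) lowers its target by guiding cleavage of the matching mRNA.

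The study asked how the loss of PC1 or PC2 changes the transcriptome of these cells and which changes need MRTF-A. The cells (clone 4) were transfected with siRNA, kept without serum from 24 h, and assayed at 48 h. The control was siNR, an siRNA with no related target, at 200 nM (4 libraries). The silenced groups received siPC1 at 150 nM (5 libraries) or siPC2 at 100 nM (3 libraries), and each of these siRNAs was also given together with siMRTF-A, as siPC1+siMRTF-A (4 libraries) and siPC2+siMRTF-A (4 libraries). For siMRTF-A the sources give both 50 nM and 100 nM. The control siRNA was used at a matched concentration, and whether it made up the total in each silenced group is not given in the sources used here. A legend of the study gives other group sizes than the labels, which were followed here for all 20 libraries, siPC1 A2 included. There was no group with siMRTF-A alone. The labels do not say that the libraries of a group came from separate cultures, so that the p-values measure the spread between these libraries, which may be technical. All 4 silenced groups were set against the same 4 siNR libraries, and a feature of those libraries cannot be told apart from a fall shared by the 4 groups.

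The library totals ran from 22874625 to 71007731 estimated counts, apart from 4421001 in siPC1 replicate 1 and 11790504 in siPC2 replicate 2. Identifiers were Ensembl transcripts, and 0 of them could be paired with a gene name from the tables used here. No gene is therefore named, and neither the knockdown of the siRNA targets nor the markers of the proximal tubule were checked. Levels in CPM were not divided by transcript length, so a higher CPM in one transcript than in another is a larger share of the reads and not a larger number of molecules.

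Together the 105 transcripts held 3963 to 4342 CPM in the siNR libraries and 812 to 1102 CPM in the 16 silenced libraries. The median member was 4.55-fold lower than in siNR, taken as the mean of the 4 log2 differences. By group, the median log2 difference of the members from siNR was -2.23 for siPC1, -1.96 for siPC2, -2.28 for siPC1+siMRTF-A and -2.0 for siPC2+siMRTF-A. Over all transcripts at the CPM floor the same medians were 0.13, 0.16, 0.15 and 0.19, so with library totals the members lay below a background slightly above siNR. TMM scaling moved the background medians down by 0.11 to 0.15 on the log2 scale, to -0.001, 0.03, 0.04 and 0.04. With it the background lay near siNR, and the member medians were -2.34, -2.09, -2.40 and -2.15. In such bulk samples, fewer cells of a kind and less RNA per cell cannot be told apart.

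**Figure D1:**
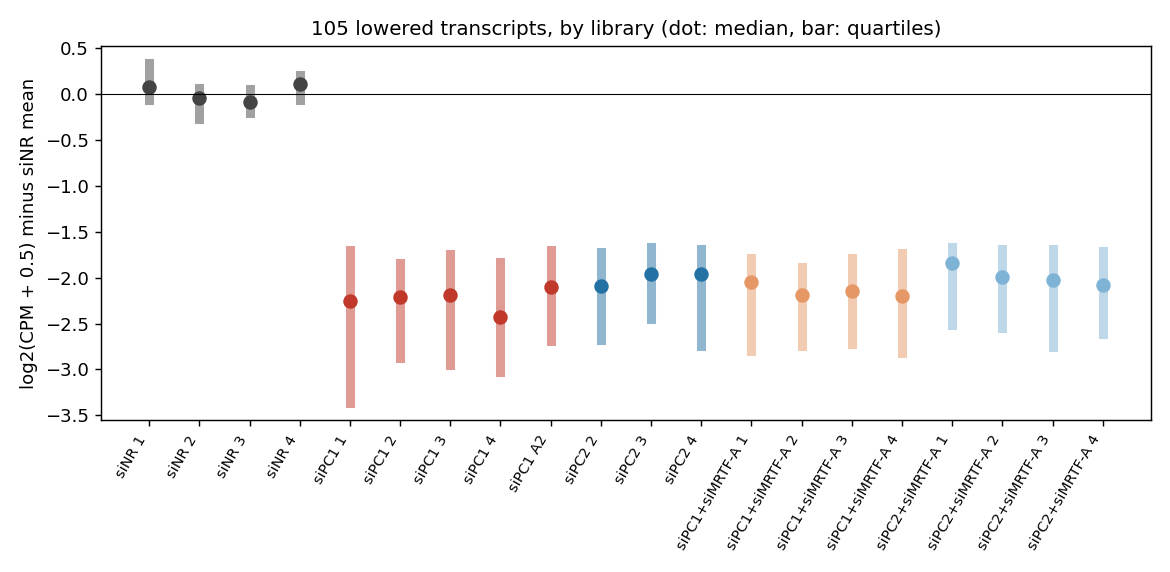
The horizontal axis lists the 20 libraries by group and the vertical axis gives log2(CPM + 0.5) minus the siNR group mean, with a dot for the median of the 105 transcripts and a bar from the lower to the upper quartile. The medians of the silenced libraries run from -2.43 in siPC1 replicate 4 to -1.85 in siPC2+siMRTF-A replicate 1, while the siNR libraries lie between -0.09 and 0.10.

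The size of the fall varied widely among the members. The mean of the 4 log2 differences was at or below -2 in 66 transcripts, at or below -3 in 15 and at or below -4 in 2. In 30 transcripts all 4 groups were at or below -2, and in 8 all 4 were at or below -3. The distance on the log2 scale from the lowest siNR library to the highest silenced library, with siPC1 replicate 1 left aside, ran from 0.07 to 4.66 (median 1.28) and was at least 1 in 74 members.

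ENSSSCT00000052139.3 was the member with the largest mean fall. Its siNR libraries held 25.8, 14.3, 15.8 and 24 CPM. The siPC1 libraries (replicates 1, 2, 3, 4 and A2) held 0, 0.0391, 0.0279, 0 and 0 CPM, and the siPC2 libraries (replicates 2, 3 and 4) held 0.0848, 0 and 0 CPM. It stayed as low with siMRTF-A, at 0.0774, 0.0625, 0.0879 and 0 CPM in siPC1+siMRTF-A and 0, 0.0316, 0.0605 and 0.0493 CPM in siPC2+siMRTF-A. Every silenced library thus lay at or near the limit of detection, since a count of 0 still allows up to 3 reads, which is 0.0422 CPM in the deepest library and 0.679 CPM in the shallowest. Its 4 group differences were the closest to each other among the members, from -5.27 to -5.16, but with at most 4.05 reads in a silenced library they are set by the pseudocount and say nothing on how alike the groups were.

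The transcripts with the next largest falls ranged from those at 0 in several silenced libraries to those with a measurable remainder in each. ENSSSCT00000004468.4 held 32.7, 18.2, 21.0 and 25.7 CPM in the siNR libraries and 1.15 to 2.49 CPM in siPC1. It held 0.763, 0.517 and 0.624 CPM in siPC2, 1.34 to 2.16 CPM in siPC1+siMRTF-A and 0.983 to 1.28 CPM in siPC2+siMRTF-A. The siPC2 libraries were its lowest, and no silenced library was at 0. ENSSSCT00000017061.5 had the same order, with 21.2 to 33.2 CPM in siNR, 1.81 to 2.47 in siPC1, 0.254 to 1.04 in siPC2, 1.88 to 3.16 in siPC1+siMRTF-A and 1.29 to 1.51 in siPC2+siMRTF-A. ENSSSCT00000024650.4 held 6.58 to 7.56 CPM in siNR and 0.0544 to 0.679 CPM over the 16 silenced libraries. ENSSSCT00000058380.3 held 8.45 to 10.6 CPM in siNR and 0 to 0.832 CPM in the silenced libraries. In both, no silenced library came near the control range.

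ENSSSCT00000003309.4 was lower in 3 of the 4 groups than in the fourth. Its siNR libraries held 5.64, 12, 11.8 and 6.23 CPM. Its siPC2 libraries held 0.594, 0.517 and 0.416 CPM, above all 13 libraries of the other silenced groups, which ran from 0 to 0.226 CPM. ENSSSCT00000010387.5 held 19.5, 19.6, 19.1 and 12.5 CPM in siNR. Of its siPC1 libraries, 4 held 0 CPM and replicate 4 held 1.14 CPM, while the siPC2 libraries held 0, 2.45 and 1.77 CPM.

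The members that took the largest share of reads in siNR were not the most strongly lowered. ENSSSCT00000007205.4 held 880, 976, 825 and 826 CPM in the siNR libraries. It held 184, 207, 191, 133 and 172 CPM in siPC1 and 217, 255 and 236 CPM in siPC2. With siMRTF-A it held 192, 213, 223 and 230 CPM after siPC1 and 218, 224, 225 and 207 CPM after siPC2. The control and silenced libraries were far apart, and the silenced groups lay close to each other. ENSSSCT00000007500.5 showed still narrower groups, with means ± SD of 520 ± 35.2 CPM in siNR (n = 4), 138 ± 5.84 in siPC1 (n = 5), 140 ± 3.6 in siPC2 (n = 3), 156 ± 1.68 in siPC1+siMRTF-A (n = 4) and 178 ± 2.95 in siPC2+siMRTF-A (n = 4). The other 6 transcripts of this kind (ENSSSCT00000013122.5, ENSSSCT00000099863.1, ENSSSCT00000007332.3, ENSSSCT00000039304.2, ENSSSCT00000007207.3 and ENSSSCT00000010516.3) had siNR means of 119 to 262 CPM. In all, 60 of the 105 members had a siNR mean of at least 10 CPM and 9 of at least 100 CPM. The median of these siNR means was 12.7 CPM, beside 13.9 CPM over all transcripts at the floor.

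**Figure D2:**
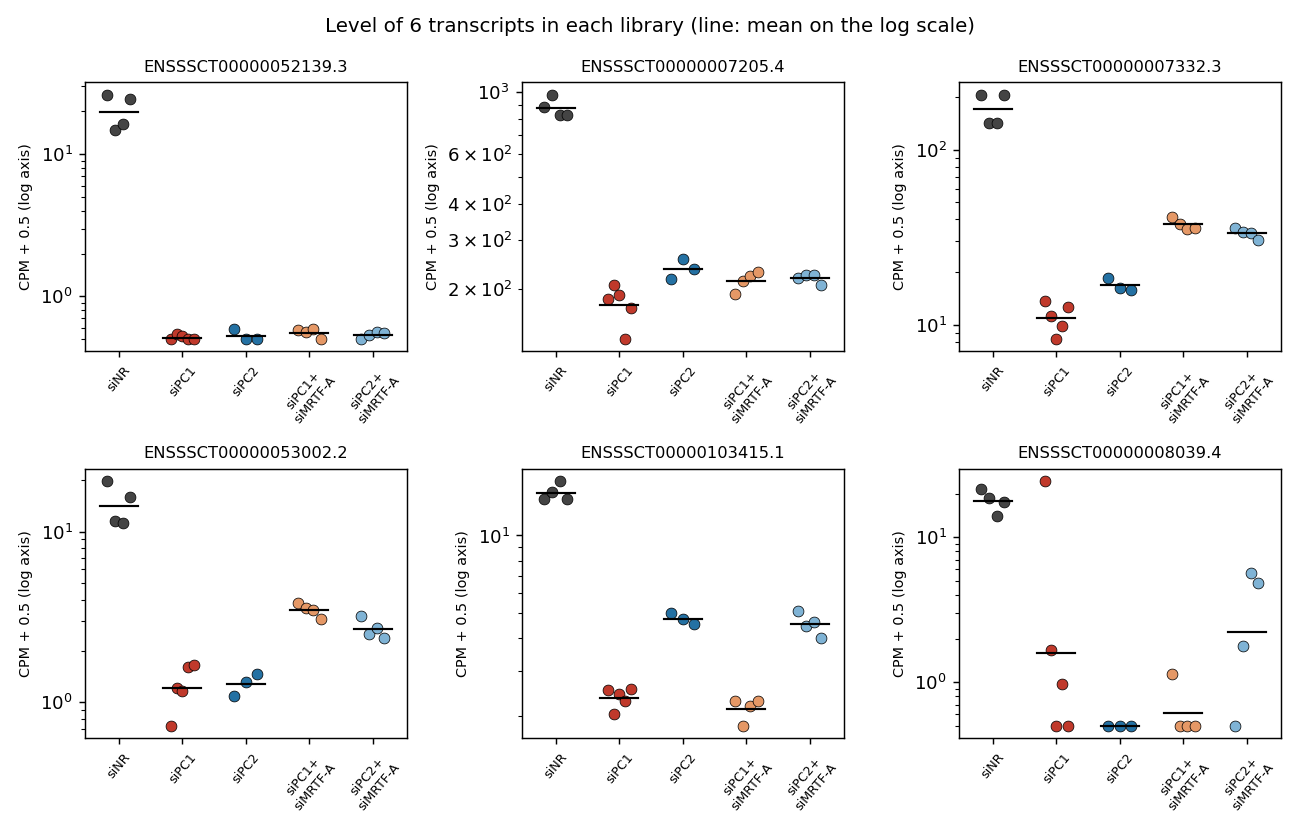
Each panel gives 1 transcript, with a point for each library by group on the horizontal axis, CPM + 0.5 on a logarithmic vertical axis, and a line at the group mean of the log values. Control points lie above the silenced points in each panel except for ENSSSCT00000008039.4, where siPC1 replicate 1 held 23.8 CPM.

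Near the limit of the rule the falls were smaller and the values closer to those of transcripts that were left out. The 3 members nearest the limit were ENSSSCT00000081073.2, ENSSSCT00000011094.5 and ENSSSCT00000050034.3 with a highest group difference at the limit when rounded to 2 decimals. Just outside lay ENSSSCT00000059421.3 (-1.497 in siPC1 and -3.51 in siPC2), ENSSSCT00000052805.3 (-1.49 in siPC2) and ENSSSCT00000011734.4 (-1.49 in siPC2+siMRTF-A). In 30 members the highest of the 4 differences was above -1.6, so that membership at this end depended on small differences in level.

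Where a read fitted more than 1 transcript, its count was split between them in the quantification, and a count that is not whole arises from such a division. At the other extreme, 9 members (8.57%) had whole counts in all 20 libraries, beside 1.42% of all transcripts at the floor. Among the named transcripts these were ENSSSCT00000004468.4, ENSSSCT00000003309.4, ENSSSCT00000058380.3, ENSSSCT00000003078.5 and ENSSSCT00000069023.1. The other 96 members had at least 1 divided count, and for them the part of the fall that comes from the division of reads was not tested.

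Counts of 0 were unevenly spread. No siNR library had a member at 0, and 66 members had no 0 in any library. Of the 39 members at 0 in at least 1 silenced library, 12 were at 0 in 5 or more. The shallow siPC1 replicate 1 had 24 members at 0 and the other silenced libraries had 1 to 11. Only 1 member was at 0 throughout a group in siPC1, and 1 in siPC2. ENSSSCT00000083662.2 (chosen after its values were seen) had 0 reads in all 5 siPC1 libraries beside a siNR mean of 5.62 CPM. Taking 3 reads in each library as the floor, the fold was 28. ENSSSCT00000008039.4 had 0 reads in all 3 siPC2 libraries beside a siNR mean of 17.4 CPM, and by the same floor the fold was 119. This floor allows for the sampling of reads only. Both transcripts had counts that are not whole, and both held 0 beside clear counts within other silenced groups. The folds are therefore not bounds on the fall.

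Some members switched between 0 and clear detection inside a group. ENSSSCT00000008039.4 held 23.8, 1.17, 0, 0.471 and 0 CPM in the siPC1 libraries and 0, 1.27, 5.17 and 4.36 CPM in siPC2+siMRTF-A. ENSSSCT00000090454.2 held 0, 0, 3.38, 0 and 1.75 CPM in siPC1, beside 20.7 to 25.8 CPM in siNR. ENSSSCT00000051634.2 held 0, 4.49 and 0 CPM in siPC2, beside 13.1 to 21.8 CPM in siPC1 and 47.1 to 60.8 CPM in siNR. A library at 0 and another with at least 10 reads within 1 silenced group were found in 35 members (33.3%), and in 11.5% of all transcripts at the floor. The rule itself favours transcripts with low values in these groups, so nothing is read from that comparison. By group the 35 members numbered 29 in siPC1, 13 in siPC2, 14 in siPC1+siMRTF-A and 12 in siPC2+siMRTF-A. The siPC1 number is not comparable with the others, because that group had the most libraries and held the shallow replicate 1. In replicate 1, where 3 reads are 0.679 CPM, 24 members were at 0, beside 6 to 10 in each of the other siPC1 libraries. A 0 there need not be a loss of detection. Some members at 0 in replicate 1 held more than 0.679 CPM in every other siPC1 library, such as ENSSSCT00000030375.4 at 4.05 to 7.52 CPM. What sets these apart was not tested.

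The rule freed siPC1 replicate 1 from the no-overlap condition only, and its values still entered the siPC1 group mean. They therefore helped to choose the members, and nothing on a shift of this library is read from them. In siPC1 replicate 1 the median difference of the members from siNR was -2.26, beside -2.21 in the other siPC1 libraries. Replicate 1 lay above the other siPC1 libraries in 35 members, below them in 30 and among them in 40. In 100 members it was below every siNR library, and in 5 it was not. ENSSSCT00000008039.4 and ENSSSCT00000045895.3 (the latter chosen after its values were seen) were above the siNR mean there, the second with 15.2 CPM beside 7.78 to 13.4 CPM in siNR.

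The effect of adding siMRTF-A was tested, since this contrast holds no siNR library and the rule did not use it, although the same libraries entered the rule through their distance from siNR. Whether siNR made up the total dose is not given, so siMRTF-A and a larger amount of siRNA cannot be told apart in this contrast. The test was edgeR's quasi-likelihood test over all transcripts, with Benjamini-Hochberg adjustment. A call required an adjusted p no higher than 0.05, a log2 change larger than 0.6 in either direction and an average normalized count of 50 or more. Of the 27702 transcripts tested, 20212 reached that mean over the 20 libraries, among them all 105 members. The members are high in siNR by choice, and over the 16 silenced libraries alone 67 of them reached it and 38 did not, so the calls are also given for those 67 (a requirement chosen after seeing the data). After siPC1, siMRTF-A raised 4 members (3.81%) and lowered 2 (1.9%), beside 1.62% raised and 1.51% lowered over all transcripts that could be called. After siPC2 it raised 4 members (3.81%) and lowered 1 (0.952%), beside 0.91% and 1.27%. Among the 67 members, 3 were raised and 1 was lowered after siPC1, beside 1.64% and 1.51% of the 20144 transcripts that met the same requirement, and 4 were raised and 0 lowered after siPC2, beside 0.913% and 1.26%. No test of these shares was made. In 96 members neither addition was called, a count whose share over all transcripts was not computed. The median log2 change over all 105 was -0.01 after siPC1 and -0.09 after siPC2. Over all transcripts that could be called it was 0.02 and 0.01.

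ENSSSCT00000007332.3 rose on adding siMRTF-A to either siRNA. It held 205, 142, 141 and 206 CPM in siNR. In siPC1 it held 13.2, 10.8, 7.78, 9.29 and 12.1 CPM, and with siMRTF-A 40.9, 37.3, 34.8 and 35.3 CPM. In siPC2 it held 17.9, 15.8 and 15.4 CPM, and with siMRTF-A 35.3, 33.5, 32.9 and 29.9 CPM. No library with siMRTF-A overlapped its partner group, and all of them remained far below siNR. The log2 change was 1.86 after siPC1 (SE 0.13, 95% interval 1.58 to 2.14, adjusted p = 1.28e-07) and 1.0 after siPC2 (SE 0.15, 95% interval 0.68 to 1.32, adjusted p = 0.000547). The difference between these changes, 0.86 (95% interval 0.44 to 1.28), was not called (adjusted p = 0.0578).

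ENSSSCT00000053002.2 was the other member that rose in both settings. Its siPC1 libraries held 0.226, 0.703, 0.659, 1.11 and 1.14 CPM, and with siMRTF-A 3.32, 3.09, 2.98 and 2.58 CPM. Its siPC2 libraries held 0.594, 0.817 and 0.971 CPM, and with siMRTF-A 2.71, 2.0, 2.22 and 1.89 CPM. These groups did not overlap either, and siNR stood above them at 10.7 to 19.2 CPM. The log2 change was 1.88 after siPC1 (SE 0.27, adjusted p = 0.000193) and 1.43 after siPC2 (SE 0.32, adjusted p = 0.0121). The second call was lost without siPC2 replicate 2 or without siPC2 replicate 3, where the change was 1.28 and 1.45.

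The remaining members that rose after siPC1 were ENSSSCT00000014373.5 and ENSSSCT00000030375.4. ENSSSCT00000030375.4 held 54.2 to 87.2 CPM in siNR, 0, 4.93, 7.52, 4.05 and 4.97 CPM in siPC1, and 12.3, 11.8, 13.4 and 14.4 CPM with siMRTF-A. Its log2 change was 1.45 (SE 0.32, adjusted p = 0.0077). ENSSSCT00000014373.5 held 0 to 0.167 CPM in siPC1 and 0.295 to 0.535 CPM with siMRTF-A, a log2 change of 1.77 (SE 0.37, adjusted p = 0.00488) that was no longer called without siNR replicate 1 or siNR replicate 4. It reached the minimum mean count through siNR (57.8 over all libraries, 10.0 over the silenced ones), and the call was lost with the minimum taken over the silenced libraries and in the model of only siPC1 with and without siMRTF-A. After siPC2, both lay closer to the siMRTF-A values, at 6.37 to 8.83 against 10.1 to 12.3 CPM and at 0.191 to 0.509 against 0.275 to 0.439 CPM, and neither was called.

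After siPC2, the other members that rose were ENSSSCT00000003078.5 and ENSSSCT00000038674.3. ENSSSCT00000003078.5 held 7.80, 7.76 and 7.90 CPM in siPC2 and 14.4, 12.5, 13.5 and 12.4 CPM with siMRTF-A (log2 change 0.74, SE 0.10, adjusted p = 0.000157). ENSSSCT00000038674.3 held 3.14, 3.21 and 3.68 CPM in siPC2 and 5.45, 6.21, 5.79 and 6.03 CPM with siMRTF-A (log2 change 0.80, SE 0.14, adjusted p = 0.00202). After siPC1 the same transcripts had log2 changes of 0.50 and 0.55, under the fold threshold. Their siNR libraries held 38.1 to 41.1 and 18 to 20.6 CPM, above all of these groups.

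The members that fell on adding siMRTF-A were ENSSSCT00000049623.3 and ENSSSCT00000061056.2 after siPC1 and ENSSSCT00000003309.4 after siPC2. ENSSSCT00000049623.3 held 1.21 to 2.26 CPM in siPC1 and 0.393 to 0.949 CPM with siMRTF-A (log2 change -1.03, SE 0.23, adjusted p = 0.00814), and it too reached the minimum mean count only with siNR included and lost its call without it. ENSSSCT00000061056.2, named because the count is small, had a log2 change of -0.65 (SE 0.18, adjusted p = 0.0295) that was lost without siPC1 replicate 3 or 4 and without siPC1+siMRTF-A replicate 1, 2 or 3. ENSSSCT00000003309.4 went from the siPC2 values above to 0.0414, 0.0282, 0.162 and 0.106 CPM (log2 change -2.60, SE 0.64, adjusted p = 0.023). That call was lost without any 1 of the 3 siPC2 libraries, without siPC2+siMRTF-A replicate 1 or without siPC2+siMRTF-A replicate 2, at log2 changes of -2.73 to -2.27. The mean normalized count of this transcript was 78.0 with siNR and 5.91 over the silenced libraries, where it held 0 to 19 reads, so the call was lost with the minimum taken over those. In a model of only the groups compared, ENSSSCT00000007332.3 and ENSSSCT00000053002.2 kept their calls after siPC1 and the other 4 members lost theirs, and ENSSSCT00000003309.4 lost its call after siPC2.

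**Figure D3:**
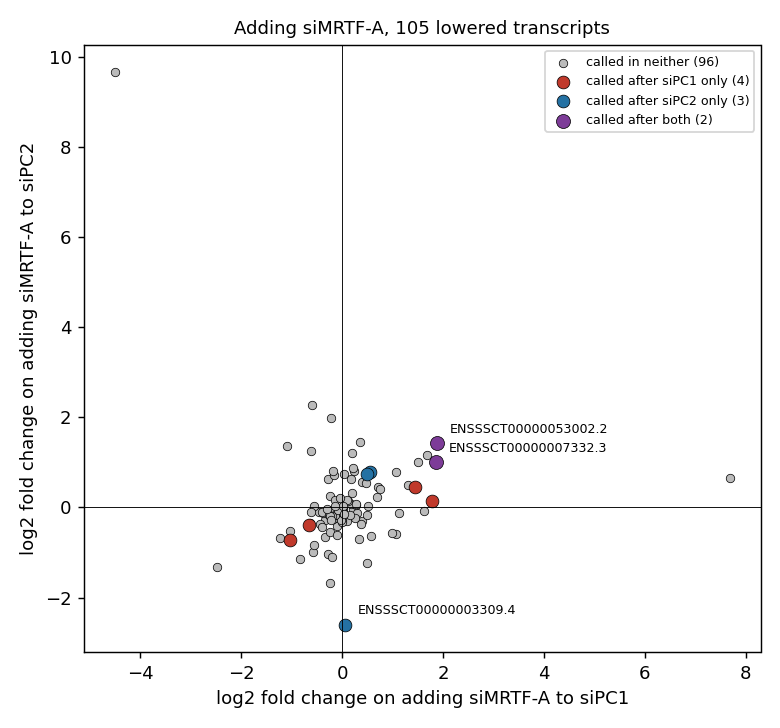
Each point is 1 of the 105 transcripts, with the fitted effect of siMRTF-A as a log2 fold change, after siPC1 on the horizontal axis and after siPC2 on the vertical axis, coloured by the call. Only ENSSSCT00000007332.3 and ENSSSCT00000053002.2 were called after both, and the points farthest from the centre belong to transcripts at 0 in a whole group, where the fitted fold is not a bound.

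No member was called for a different siMRTF-A effect after siPC1 than after siPC2, beside 0.228% of all transcripts with a higher and 0.178% with a lower effect after siPC1 by edgeR (0.223% and 0.169% by the minimum over the silenced libraries, with 0 of the 67 members called). At an unadjusted p under 0.05 edgeR found 13 members, and DESeq2 called 5. The shares over all transcripts were not computed for these counts, so nothing is read from them. The precision was limited, as 36 of the 105 members had a 95% interval of this difference within 1 log2 unit of 0. For the addition of siMRTF-A alone, the interval stayed within that range in 53 of the 99 members not called after siPC1 and in 44 of the 100 not called after siPC2. These counts can overstate the precision, because for some members the interval was narrower than the p-value implies. For ENSSSCT00000004406.5 after siPC1 it ran from -0.484 to -0.0029, while the unadjusted p of the quasi-likelihood test was 0.104.

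The siPC1 and siPC2 groups were compared directly in the same model, again without siNR. Both siRNAs were given at their own dose, so target and dose cannot be told apart. In siPC1, 12 members (11.4%) were lower than in siPC2 and 6 (5.71%) were higher, beside 7.92% lower and 7.68% higher over all transcripts that could be called. With siMRTF-A present in both groups, 6 members (5.71%) were lower after siPC1 and 3 (2.86%) were higher, beside 4% and 3.55%. Among the 67 members that reached the minimum mean count over the silenced libraries, 10 were lower and 3 higher in siPC1, beside 7.87% and 7.7%, and with siMRTF-A 6 were lower and 2 higher, beside 3.98% and 3.59%. Of all members, 7 were called in both comparisons. A model of only the siPC1 and siPC2 libraries called 8 members lower and 1 higher in siPC1. For neither of these results was the share over all transcripts computed, and nothing is read from them.

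ENSSSCT00000103415.1 gave the smallest adjusted p in both. Its siNR libraries held 13.3, 14.3, 15.7 and 13.3 CPM. It held 2.04, 1.53, 1.95, 1.79 and 2.05 CPM in siPC1 and 4.50, 4.27 and 4.05 CPM in siPC2. With siMRTF-A it held 1.79, 1.34, 1.69 and 1.79 CPM after siPC1 and 4.60, 3.96, 4.14 and 3.53 CPM after siPC2. The 9 libraries with siPC1 were all below the 7 with siPC2, whether or not siMRTF-A was given. The log2 difference, siPC1 minus siPC2, was -1.19 without siMRTF-A (SE 0.12, adjusted p = 1.19e-06) and -1.25 with it (SE 0.12, adjusted p = 1.5e-06).

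ENSSSCT00000094280.1, ENSSSCT00000004406.5 and ENSSSCT00000006640.4 had the same order in both comparisons. ENSSSCT00000094280.1 held 3.35 to 6.11 CPM in siPC1 and 9.53 to 11 CPM in siPC2, and 2.95 to 4.28 against 6.65 to 11.06 CPM with siMRTF-A (log2 differences -1.11 and -1.19, adjusted p = 2.57e-05 and 2.33e-05). ENSSSCT00000004406.5 held 1.56 to 2.26 against 3.54 to 4.51 CPM, and 1.40 to 1.61 against 2.50 to 2.89 CPM with siMRTF-A (log2 differences -1.07 and -0.77). ENSSSCT00000006640.4 held 3.11 to 3.99 against 6.84 to 8.21 CPM, and 3.22 to 4.91 against 5.84 to 6.98 CPM with siMRTF-A (log2 differences -1.05 and -0.66). The last of these calls was lost without siPC1+siMRTF-A replicate 1 or 2 or without siPC2+siMRTF-A replicate 3, where the difference was between -0.60 and -0.58. In none of these pairs did the libraries overlap.

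Other members were called lower after siPC1 only without siMRTF-A. ENSSSCT00000050034.3 held 9.13 to 12.9 CPM in siPC1 and 16.3 to 22 CPM in siPC2 (log2 difference -0.88, adjusted p = 9e-06). With siMRTF-A it held 13.4 to 17.3 and 16.7 to 23.6 CPM. ENSSSCT00000056961.3 held 4.50 to 5.63 CPM in siPC1 and 7.90 to 8.36 CPM in siPC2 (log2 difference -0.72, adjusted p = 2.82e-05), and 4.68 to 5.00 against 5.70 to 6.83 CPM with siMRTF-A. Whether the 2 comparisons differed for these transcripts is the same test as that of the siMRTF-A effect above, in which none was called.

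The opposite order was found in ENSSSCT00000007207.3, ENSSSCT00000017061.5 and ENSSSCT00000024650.4, which were higher after siPC1 in both comparisons. ENSSSCT00000007207.3 held 29.9, 33.3, 37.1, 44.3 and 31.7 CPM in siPC1 and 19.3, 25.1 and 24.4 CPM in siPC2. With siMRTF-A it held 29.5, 31.6, 36.9 and 38.4 CPM after siPC1 and 18.9, 20, 21.9 and 22.2 CPM after siPC2. All libraries with siPC1 stood above all libraries with siPC2. The log2 difference was 0.63 without siMRTF-A (SE 0.15, adjusted p = 0.00417), a value that went below the fold threshold without siPC1 replicate 4 or siPC2 replicate 2, and 0.76 with it (SE 0.14, adjusted p = 0.000931). ENSSSCT00000017061.5 had log2 differences of 1.55 and 0.88 (adjusted p = 0.000316 and 0.0148), the first lost in the model of only siPC1 and siPC2 and the second without siPC1+siMRTF-A replicate 3. ENSSSCT00000024650.4 had 1.74 and 1.03 (adjusted p = 0.00738 and 0.0474), the first lost without siPC2 replicate 3 and the second in 18 of 29 alternative settings. Its mean normalized count was 64.9 with siNR and 9.12 over the silenced libraries, so both calls were lost with the minimum taken over those, and the model of only siPC1 and siPC2 did not test it.

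**Figure D4:**
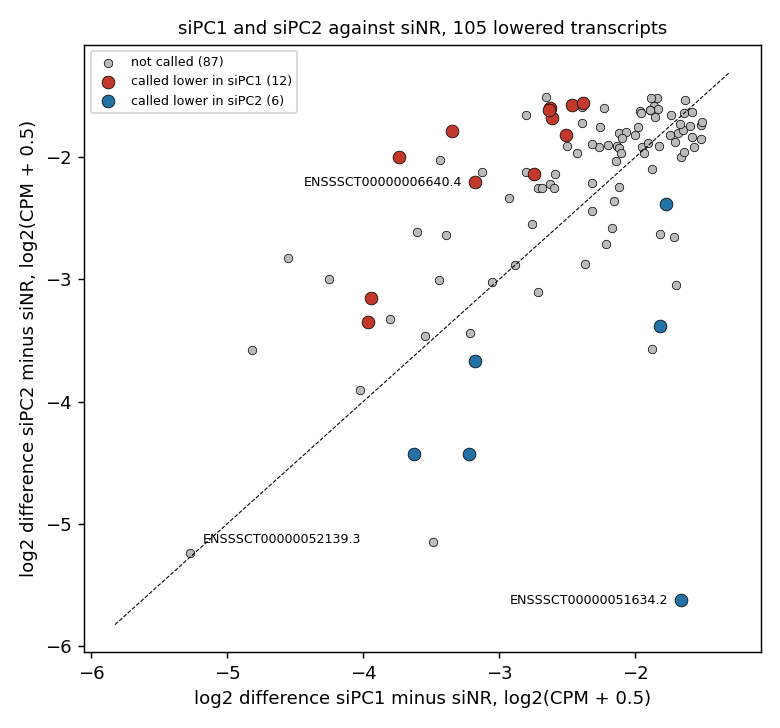
Each point is 1 of the 105 transcripts, placed by its log2 difference from siNR in siPC1 (horizontal) and in siPC2 (vertical), on the log2(CPM + 0.5) scale, with a dashed line where both are equal and colours for the edgeR calls of siPC1 against siPC2. The 12 transcripts called lower in siPC1 lie above the line and the 6 called lower in siPC2 lie below it.

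Over the 5 tested comparisons, 27 members were called in at least 1 and 78 in none. The same share over all transcripts was not computed, so these counts say nothing particular to the members. Described without a test, the range of the 4 differences from siNR within a member had a median of 0.68 log2 units. It was at most 0.5 in 38 members and at least 1.5 in 12. ENSSSCT00000051634.2 was the most unequal, at -1.66 in siPC1 and -5.62 in siPC2, and ENSSSCT00000044365.2 and ENSSSCT00000062458.3 were, after ENSSSCT00000052139.3, the most equal. ENSSSCT00000044365.2 held 18.8 to 25.4 CPM in siNR and 5.51 to 7.84 CPM over all silenced libraries. The lowest of the 4 groups was siPC1 in 37 members, siPC1+siMRTF-A in 31, siPC2 in 20 and siPC2+siMRTF-A in 17.

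How far the members moved together from library to library is described here without a test. After the group means were removed, the 5460 pairs of members had a median Pearson correlation of 0.03 over 15 silenced libraries (siPC1 replicate 1 left out), and 21 pairs exceeded 0.8. Such values are descriptions, since the libraries share their depth across all transcripts. Many members had few reads in these libraries, where counting noise pulls a correlation toward 0. The same values over all transcripts were not computed, so no lack of shared movement is read from them. Over the 16 silenced libraries, the members most like ENSSSCT00000052139.3 were ENSSSCT00000014373.5 (r = 0.51), ENSSSCT00000007332.3 (r = 0.45) and ENSSSCT00000030375.4 (r = 0.43), values from which nothing is read, since ENSSSCT00000052139.3 held 0 to 4.05 reads in these libraries. The members most like ENSSSCT00000007205.4 were ENSSSCT00000010417.5 (r = 0.75), ENSSSCT00000000067.3 (r = 0.73) and ENSSSCT00000069023.1 (r = 0.71). Within groups, the spread of the members on the log2 scale was also wider than that of all transcripts at the floor. The median SD was 0.35 against 0.23 in siPC1 and 0.26 against 0.18 in siNR. It was 0.23 against 0.14 in siPC2, 0.20 against 0.15 in siPC1+siMRTF-A and 0.21 against 0.15 in siPC2+siMRTF-A. Without the shallow replicate 1 the siPC1 value of the members was 0.26, and that of all transcripts was not computed. How far the lower level of the members in the silenced groups sets their spread there was not tested. In siNR their median level was 12.7 CPM, beside 13.9 CPM over all transcripts at the floor, and the wider spread there was not examined further.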

How the data were processed

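RNA-Seq libraries of transfected LLC-PK1 cells (20) were sequenced in single-read or paired-end mode, and the read mode of each library is not given in the sources used here. The authors trimmed the reads (FastQC 0.11.8, Trim Galore 0.6.3 in the submitters' notes), quantified them with Salmon 0.14.1 against the coding sequences of the Sscrofa11.1 pig genome, and deposited an estimated count per transcript in each library without normalization. Reads from untranslated regions were therefore not counted.

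CPM was computed here from the deposited estimated counts and the library totals, with a pseudocount of 0.5 before the log2 step. For tests, the counts were rounded to whole numbers and fitted in R 4.3.3 with edgeR 4.0.16 (filterByExpr by group, TMM, 1 quasi-likelihood model of the 5 groups, which share one estimate of the spread). Calls needed an adjusted p no higher than 0.05, a log2 change beyond 0.6 and an average normalized count of 50 or more. The 95% intervals use the degrees of freedom of that fit, and for some members they are narrower than the p-value implies. The procedure was tested on simulated data.

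The alternatives were DESeq2 1.42.0, library totals in place of TMM, other filters and limits, models of only the groups compared, a replicate block, each library left out in turn and, chosen after seeing the data, a fit without the 2 libraries of lowest total and a minimum mean count taken over the 16 silenced libraries. The replicate block was fitted without siPC1 A2, a label that no other group has. The members, lists and tests were chosen with earlier results of these data known. Named transcripts were the 8 with the largest mean fall, the 8 with the highest siNR CPM, up to 5 called members with the smallest adjusted p in each tested comparison, the 3 nearest either side of the limit, the 3 most equal and the 3 most unequal, and the 3 most like the first of each of the first lists. The lists of gene names were not used, because 0 transcript identifiers matched. No 2 libraries of a group agreed within sampling noise (lowest chi-square divided by its degrees of freedom 9.34).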

Additional observations from a re-analysis of the deposited data

Results flagged for a closer look

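Among the named transcripts, 112 groups of 4 or 5 libraries were examined for a library that stood apart from the others of its group (Dixon's test at the 95% level), which chance alone gives in about 1 of 20 groups, and 8 were found. The siPC1 libraries account for 4 of them. ENSSSCT00000010387.5 held 1.14 CPM in siPC1 replicate 4 and 0 in the other siPC1 libraries. ENSSSCT00000013122.5 was lowest in the same library, at 51.0 CPM beside 71.3 to 77.1. ENSSSCT00000030375.4 was listed at 0 CPM in the shallow siPC1 replicate 1, beside 4.05 to 7.52. ENSSSCT00000056961.3 was highest in siPC1 replicate A2, at 5.63 CPM beside 4.50 to 4.73. In the control, ENSSSCT00000010387.5 held 12.5 CPM in siNR replicate 4 and 19.1 to 19.6 in the other libraries, still above every silenced library. With siMRTF-A, ENSSSCT00000008039.4 held 0.644 CPM in siPC1+siMRTF-A replicate 1 and 0 in the others, ENSSSCT00000004406.5 held 1.40 CPM in siPC1+siMRTF-A replicate 4 beside 1.60 to 1.61, and ENSSSCT00000056961.3 held 5.70 CPM in siPC2+siMRTF-A replicate 2 beside 6.69 to 6.83. What sets these libraries apart was not tested.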

How the results depend on the processing

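The number of members depended most on the settings of the rule. It was 163 with TMM-scaled CPM (all 105 among them), 48 with a mean CPM of at least 5, 387 with a log2 limit of -1 and 30 with a limit of -2. With a library left out in turn it ran from 98 to 110. The numbers of members called moved by over 1.5 times in some settings. With models of only the groups compared, 2 members were called for siMRTF-A after siPC1, 9 for siPC1 against siPC2 and 1 for the difference between the siMRTF-A effects. With DESeq2, 9 were called for siMRTF-A after siPC2 and 5 for that difference. Without the 2 libraries of lowest total, 8 were called for siMRTF-A after siPC2. With each library left out, the calls ran from 5 to 8 for siMRTF-A after siPC1, from 3 (without siPC2 replicate 2) to 8 (without siPC1 replicate 1) after siPC2, from 16 to 21 for siPC1 against siPC2, from 6 to 11 with siMRTF-A in both, and from 0 to 1 for the difference between the effects (1 without siNR replicate 4, siPC1 replicate 1 or siPC2 replicate 3). The cause of these changes was not tested. The shares of all transcripts called in these runs were not computed. No result changed direction in any of the alternatives. Of the 38 calls of members over the tested comparisons, 15 held in every alternative run and 23 were lost in at least 1, 4 of them in 5 or more. Low totals limit siPC1 replicate 1 most, where 3 reads are 0.679 CPM.

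The libraries share replicate numbers between groups, but the labels do not say what a number stands for. Libraries with the same number had a mean correlation of 0.11 in their deviations from the group means, beside -0.03 for different numbers. Of the pairs with the same number 17 of 36 exceeded 0.1, beside 21 of 123 with different numbers. Libraries of the same number were thus somewhat more alike. The main model held no pairing, because the labels name none. A model with a replicate block, fitted without siPC1 A2, called 6, 4, 19, 9 and 0 members in the 5 comparisons. The main model called 6, 5, 18, 9 and 0. The call of ENSSSCT00000003309.4 after siPC2 was among those lost. The block and the missing library cannot be told apart in these changes.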
